A study of Mus musculus with 4 samples.

Results

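Collagen genes were followed through chromatin accessibility data of mouse pachytene spermatocytes that were exposed to BMH-21, a DNA-intercalating small molecule that inhibits RNA polymerase I. The family was taken as every protein-coding gene of the GRCm38 annotation whose symbol is Col, a number, a and a number, which gave 44 genes on 15 chromosomes out of 21883 protein-coding genes. Spermatocytes at the pachytene stage of meiotic prophase came from mouse testes and received 2.5 µM BMH-21 for 12 h or the DMSO vehicle (mock), with 2 libraries in each group. The replicates are described as biological, but no source used here says that they came from separate animals, and the sources used here give no strain, age, genotype or method of isolation. The assay was ATAC-seq, in which a transposase cuts and tags open DNA, and each library has its own list of peaks, which are the sites that the authors' caller found to be enriched. There were 109230 peaks in mock 1, 117905 in mock 2, 51234 in BMH-21 1 and 55459 in BMH-21 2. Read depth was not given by the lists.

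Collagens are the main structural proteins of the extracellular matrix. A collagen molecule is a triple helix of chains that are hydroxylated and glycosylated in the endoplasmic reticulum, secreted, trimmed and then assembled into fibrils, networks or filaments. In the testis, type I and type IV collagens lie in the basement membrane and the peritubular wall around the seminiferous tubules, and they are made mainly by Sertoli and peritubular cells. Germ cells lie inside that wall.

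The promoters of 7 members are shown so that sequences of different classes can be compared. A class was set by peaks near either end of the gene, as described below, and the promoter itself need not overlap such a peak. The median promoter held 13 CpG dinucleotides in the class with a peak in the mock libraries only, 17 in the class with a peak in all libraries and 3 in the class without one, against 7, 21 and 2 for the same classes of all protein-coding genes. The sequences are from RefSeq (GRCm38.p6), which held promoters for 35 of the 44 members, and each runs from 250 bases before to 50 bases after the annotated transcription start, 5′ to 3′ on the strand of the gene, with CpG dinucleotides in capitals. The first 3 overlapped a peak in both mock libraries and in neither BMH-21 library. They are Col1a2 (chr6:4505368-4505667, plus strand, 13 CpG), which codes for a chain of type I collagen, Col19a1 (chr1:24587388-24587687, minus strand, 16 CpG), a fibril-associated collagen, and Col4a4 (chr1:82586800-82587099, minus strand, 14 CpG), a basement membrane chain.
Col1a2: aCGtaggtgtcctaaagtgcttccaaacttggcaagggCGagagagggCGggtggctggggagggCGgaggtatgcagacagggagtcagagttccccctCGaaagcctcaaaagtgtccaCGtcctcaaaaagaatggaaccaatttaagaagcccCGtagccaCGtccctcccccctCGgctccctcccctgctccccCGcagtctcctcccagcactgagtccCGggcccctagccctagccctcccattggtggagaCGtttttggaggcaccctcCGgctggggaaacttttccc
Col19a1: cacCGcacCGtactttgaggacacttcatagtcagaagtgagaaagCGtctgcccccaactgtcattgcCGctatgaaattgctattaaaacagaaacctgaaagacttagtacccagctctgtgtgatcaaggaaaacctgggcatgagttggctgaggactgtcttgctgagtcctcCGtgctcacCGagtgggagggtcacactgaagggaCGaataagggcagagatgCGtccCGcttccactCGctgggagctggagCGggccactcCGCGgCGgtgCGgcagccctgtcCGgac
Col4a4: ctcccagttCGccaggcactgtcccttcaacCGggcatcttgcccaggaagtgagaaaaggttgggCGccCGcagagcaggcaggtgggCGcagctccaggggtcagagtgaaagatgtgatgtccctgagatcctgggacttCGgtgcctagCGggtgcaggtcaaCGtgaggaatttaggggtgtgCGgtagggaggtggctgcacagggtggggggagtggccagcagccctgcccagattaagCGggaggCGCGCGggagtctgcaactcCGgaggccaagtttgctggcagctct
The next 3 overlapped a peak in all 4 libraries. They are Col25a1 (chr3:130180595-130180894, plus strand, 23 CpG), a transmembrane collagen, Col16a1 (chr4:130047590-130047889, plus strand, 24 CpG), a fibril-associated collagen, and Col4a5 (chrX:141475169-141475468, plus strand, 11 CpG), a basement membrane chain.
Col25a1: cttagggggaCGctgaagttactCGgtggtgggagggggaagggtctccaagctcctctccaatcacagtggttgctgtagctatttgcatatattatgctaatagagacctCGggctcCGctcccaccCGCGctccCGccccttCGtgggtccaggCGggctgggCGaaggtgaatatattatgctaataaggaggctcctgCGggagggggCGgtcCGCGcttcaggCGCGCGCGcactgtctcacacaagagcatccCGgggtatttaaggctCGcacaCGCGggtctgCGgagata
Col16a1: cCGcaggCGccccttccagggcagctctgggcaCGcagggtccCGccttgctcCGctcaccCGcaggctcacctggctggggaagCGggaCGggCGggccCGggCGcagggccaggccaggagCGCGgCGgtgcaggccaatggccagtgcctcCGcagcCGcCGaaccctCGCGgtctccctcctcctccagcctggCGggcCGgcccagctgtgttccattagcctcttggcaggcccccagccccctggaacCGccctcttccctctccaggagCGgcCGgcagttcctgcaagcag
Col4a5: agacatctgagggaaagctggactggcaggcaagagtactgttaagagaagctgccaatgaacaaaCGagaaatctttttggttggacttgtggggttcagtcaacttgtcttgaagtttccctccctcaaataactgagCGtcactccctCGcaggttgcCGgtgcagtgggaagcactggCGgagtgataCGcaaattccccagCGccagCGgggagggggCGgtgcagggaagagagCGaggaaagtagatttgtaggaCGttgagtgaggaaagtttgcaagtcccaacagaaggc
The last, Col3a1 (chr1:45311288-45311587, plus strand, 0 CpG), codes for type III collagen of distensible tissues and overlapped no peak in any library.
Col3a1: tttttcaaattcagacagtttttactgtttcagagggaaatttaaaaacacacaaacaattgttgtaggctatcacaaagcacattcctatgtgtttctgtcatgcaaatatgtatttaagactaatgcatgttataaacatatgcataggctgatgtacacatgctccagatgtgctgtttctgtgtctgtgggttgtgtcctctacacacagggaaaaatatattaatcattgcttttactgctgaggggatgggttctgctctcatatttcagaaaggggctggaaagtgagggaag

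A gene end was called occupied in a library if a peak lay within 1 kb of either end of the gene, because the peak lists have no strand and the annotation used for all genes gives none. Such peaks were found at 32 collagen genes in each mock library, at 18 in BMH-21 1 and at 20 in BMH-21 2, and the groups did not overlap. Over all protein-coding genes the numbers were 15331 and 15475 against 13345 and 13446. The mean number of occupied collagen genes was 32 ± 0 in mock and 19 ± 1.41 in BMH-21 (SD, n = 2 libraries each), a ratio of 0.594 against 0.870 over all protein-coding genes. An exact two-sided permutation test over the 3 divisions of the 4 libraries gave p = 0.333, which is the smallest value that this design allows, so no comparison here can pass a threshold of 0.05. A missing peak is a site below the caller's threshold, and fewer cells with an open site cannot be told apart from less opening in each cell.

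Of the 44 collagen genes, 31 were occupied at an end in both mock libraries. Neither BMH-21 library had a peak there at 11 of these 31 genes, which are called mock-only, a share of 35.5% (exact 95% interval 19.2 to 54.6%, which covers counting error only). The background over all protein-coding genes was 11.5%, below that interval. Col4a3 and Col4a4 share 1 peak, as do Col4a1 and Col4a2, and counted by site 10 of 29 were mock-only (34.5%, 17.9 to 54.3%). No collagen gene was BMH-21-only (0 of 44, which allows up to 8.04%, against a background of 0.800%). A peak in all 4 libraries was found at 18 genes, or 40.9% (26.3 to 56.8%), against 57.9% of all protein-coding genes. A further 11 genes had no gene-end peak in any library and 4 had another pattern. The share of members occupied in both mock libraries, 70.5%, lay close to that of all genes, 68.7%.

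The BMH-21 lists held on average 0.470 times as many peaks as the mock lists, so the count was repeated with lists of 1 length. When each list was reduced to its 51234 peaks with the highest −log10 p, the number in the shortest list, 7 of 25 collagen genes were mock-only, against 7.02% of all protein-coding genes. Col1a2, Col4a3, Col4a4, Col14a1, Col18a1, Col19a1 and Col26a1 were the 7 that kept the class, while Col6a6, Col7a1, Col8a1 and Col11a1 did not. Of the 18 genes occupied in all 4 libraries 15 stayed so, while Col1a1, Col4a6 and Col15a1 did not. At annotated transcription starts, which the promoter table gives for 35 members, 10 of the 26 genes occupied in both mock libraries were mock-only (38.5%, 20.2 to 59.4%), against 9.93% of all protein-coding genes.

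**Figure D1:**
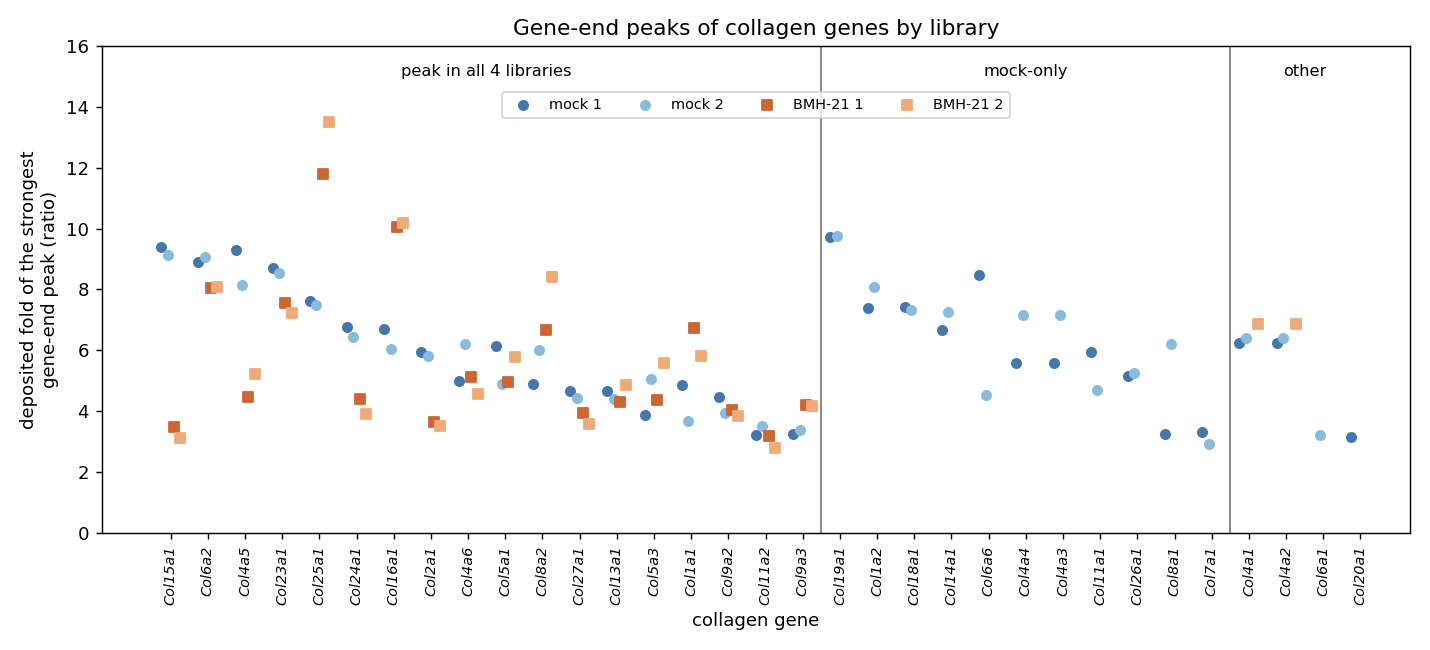
Deposited fold of the strongest gene-end peak (y axis, ratio of the peak to its local background within 1 library) for 33 collagen genes with such a peak in some library (x axis), by library; circles are mock and squares BMH-21, and a missing symbol means no peak. The 18 genes on the left have a symbol for all 4 libraries, and the 11 mock-only genes range from 2.92 (Col7a1) to 9.77 (Col19a1) in mock with no BMH-21 symbol.

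Among the fibrillar collagens, which form the banded fibrils of connective tissue, 9 of 11 genes were occupied in both mock libraries, 7 of them in all 4 libraries and 2 in mock only. The mock-only pair were Col1a2 and Col11a1. Col1a2 (chromosome 6, 4505618 to 4541543), which codes for a chain of type I collagen, had a mock peak across its 5′ end with a deposited fold of 7.40 in mock 1 and 8.09 in mock 2, and a width of 1281 and 924 bp. No peak was called there in BMH-21 1 or BMH-21 2. The fold is the authors' enrichment of a peak over the local background of its own library, and it is not normalised between libraries, so the folds of different libraries are printed side by side and no change is read from them. Col11a1 (chromosome 3, 114030479 to 114220756), a minor chain of cartilage fibrils, had fold 5.96 and 4.70 in mock 1 and mock 2 and no BMH-21 peak. Its partner chain gene Col11a2 was occupied in all 4 libraries (fold 3.21, 3.50, 3.19 and 2.79 in mock 1, mock 2, BMH-21 1 and BMH-21 2), at a peak that also lies within 1 kb of an end of Rxrb, a nuclear receptor gene.

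Chains of one molecule did not always share a class. Col1a1, whose product joins that of Col1a2 in type I collagen, had a peak in all 4 libraries, with fold 4.85 and 3.67 in mock, against 6.74 and 5.83 in BMH-21. Col2a1, the collagen of cartilage, had fold 5.94, 5.81, 3.64 and 3.50 in the same order of libraries. Col5a1, which starts fibril assembly, had fold 6.14, 4.90, 4.97 and 5.79, the mock 1 value being that of a peak at its 3′ end, and Col5a3 had 3.87, 5.05, 4.36 and 5.57. Both genes were thus occupied in each library. The less known fibrillar genes Col24a1 (6.75, 6.43, 4.40 and 3.91) and Col27a1 (4.66, 4.44, 3.93 and 3.57) were also occupied in all 4. Col3a1 and Col5a2, neighbours on chromosome 1, had no gene-end peak in any library.

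Type IV collagen, the sheet-forming collagen of basement membranes, is coded by 6 genes in 3 head-to-head pairs, and each pair showed a class of its own. The first pair, Col4a4 and Col4a3 on chromosome 1, overlaps by 114 bp at its shared ends, and a single peak over them served both genes. That peak had fold 5.60 in mock 1 and 7.15 in mock 2 and was 1079 and 1109 bp wide, and neither BMH-21 library had one, so both genes were mock-only. The pair Col4a1 and Col4a2 on chromosome 8, which codes for the most widespread type IV molecule, overlaps by 85 bp. Its shared peak was present in mock 1, mock 2 and BMH-21 2, with fold 6.24, 6.42 and 6.86 and widths of 1112, 1135 and 481 bp, and was not called in BMH-21 1. The 2 BMH-21 libraries thus differ at this pair, and without BMH-21 2 both genes are mock-only, which makes 13 mock-only genes. The X-linked pair Col4a6 and Col4a5 has starts 1274 bp apart with a peak at each. Col4a5 had fold 9.30 and 8.14 in mock, against 4.45 and 5.24 in BMH-21, and Col4a6 had 5.00, 6.21, 5.13 and 4.56, so both were occupied in all 4 libraries. With lists of equal length Col4a5 kept that class and Col4a6 did not.

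Type VI collagen forms beaded filaments between cells and fibrils, and 2 of its 6 genes were occupied in both mock libraries. Col6a2 had a peak in all 4 libraries, with fold 8.90, 9.05, 8.06 and 8.07 in mock 1, mock 2, BMH-21 1 and BMH-21 2. Col6a6 was mock-only, with fold 8.48 in mock 1 and 4.52 in mock 2, so the replicates differed widely. Col6a1, the neighbour of Col6a2 on chromosome 10, had a gene-end peak only in mock 2 (fold 3.21). Col6a3, Col6a4 and Col6a5 had none, although at an annotated start inside the Col6a5 gene there was a peak in both mock libraries only.

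Fibril-associated collagens with interrupted triple helices, which coat fibrils and link them to other matrix proteins, had 5 of 9 genes occupied in both mock libraries, 3 in all 4 and 2 in mock only. Col19a1 (chromosome 1, 24257683 to 24587922) had the highest mock folds of the mock-only members, 9.74 in mock 1 and 9.77 in mock 2, at peaks 1206 and 813 bp wide that began 397 and 848 bp inside the gene. When peaks were reduced to 100 bp on either side of their summits, Col19a1 was no longer mock-only. Col14a1, found in tendon and skin, had fold 6.68 and 7.27 and widths of 1231 and 1199 bp, with no BMH-21 peak. With a window of 2.5 kb, however, Col14a1 was occupied in all 4 libraries, since BMH-21 peaks lay beyond the opposite end of the gene from the mock peaks. The genes occupied in all 4 were Col16a1 (fold 6.68, 6.05, 10.1 and 10.2), Col9a2 (4.46, 3.95, 4.03 and 3.85) and Col9a3 (3.24, 3.37, 4.19 and 4.17). Col20a1 had a single peak in mock 1 (fold 3.14), and Col9a1, Col12a1 and Col22a1 had none, although a second annotated start inside Col9a1 had a peak in both mock libraries only.

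The 2 multiplexins, basement membrane collagens that carry heparan or chondroitin sulfate chains, were of different classes. Col18a1 (chromosome 10, 77052178 to 77166530), the source of endostatin, was mock-only with fold 7.41 and 7.32 and widths of 1126 and 1134 bp. Col15a1 was occupied in all 4, with fold 9.38 and 9.13 in mock, against 3.48 and 3.13 in BMH-21. Its BMH-21 peaks, 400 and 256 bp wide, lay inside the span of the mock peaks of 957 and 999 bp. At a threshold of −log10 q of at least 5, Col15a1 became mock-only.

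Of the short-chain network collagens, Col8a1 was mock-only, with fold 3.25 in mock 1 and 6.21 in mock 2, Col8a2 was occupied in all 4 (4.89, 6.01, 6.67 and 8.41), and Col10a1, the collagen of hypertrophic cartilage, was occupied in none. The 2 folds of Col8a1 belong to peaks at different places, and at the place of the mock 1 peak mock 2 had fold 3.58. Col8a1 was no longer mock-only at a −log10 q of at least 5. Of the transmembrane collagens, which span the cell membrane and can be shed, none was mock-only. Col25a1, a component of brain amyloid plaques, had fold 7.61 and 7.48 in mock, against 11.8 and 13.5 in BMH-21, and Col23a1 had 8.71, 8.53, 7.55 and 7.22, with the BMH-21 1 value from a peak at its 3′ end, close to Phykpl. Col13a1 met the rule for all 4 libraries with peaks at different ends: the mock peaks (fold 4.68 and 4.39) were at its 5′ end and the BMH-21 peaks (4.31 and 4.87) at its 3′ end, and at its annotated start it was mock-only. Col17a1, of hemidesmosomes, had no gene-end peak.

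The remaining 3 genes included 2 mock-only members. Col26a1 had fold 5.14 in mock 1 and 5.24 in mock 2, with the strongest peak at opposite ends of the gene in the 2 libraries, and its widest mock peaks, of 1712 and 1666 bp, overlapped BMH-21 peaks that lay just outside the 1 kb window, so that with a window of 2.5 kb it was occupied in all 4. Col7a1, the anchoring fibril collagen of skin, had fold 3.33 and 2.92 at its 3′ end, within 1 kb of an end of Ucn2, and no peak at its start in any library. Its mock-only class thus rests on the 3′ end alone. Col28a1 had no gene-end peak.

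**Figure D2:**
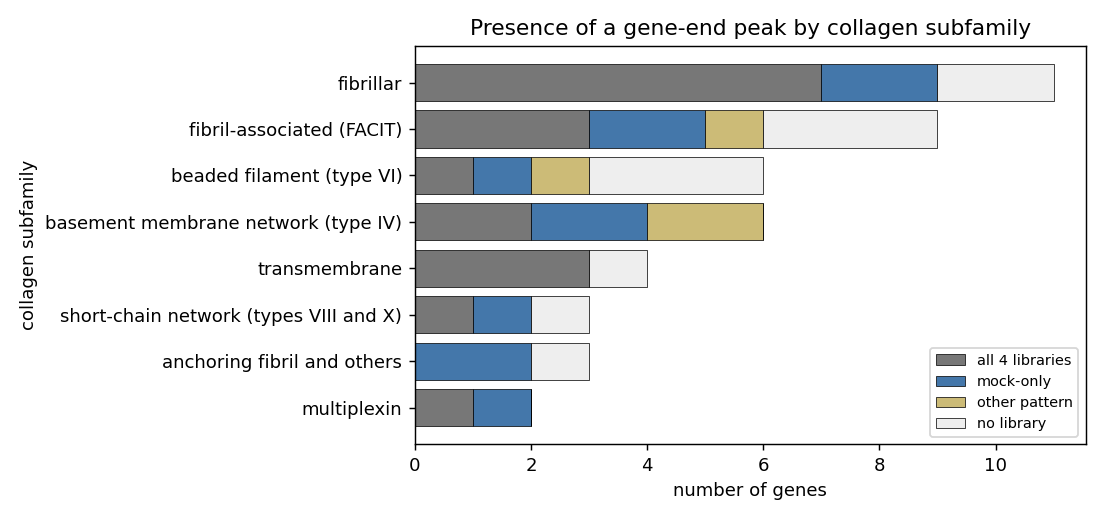
Number of collagen genes (x axis) by subfamily (y axis), divided into genes with a gene-end peak in all 4 libraries, in both mock libraries only, with another pattern, and with none. Fibrillar genes are mostly grey (7 of 11), and the 3 head-to-head pairs of type IV fall into 3 classes of 2 genes each.

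Where strand was known, the class mostly rested on the 5′ end. Of 8 mock-only genes with a known strand 7 had the mock peaks at the 5′ end, and of 15 genes occupied in all 4 libraries 14 had a 5′ peak in each. The distance maps show the 2 situations: mock peaks of 924 to 1281 bp across the start of Col1a2, Col18a1 and Col4a4 with an empty BMH-21 track, and narrower BMH-21 peaks within the mock span at Col25a1 and Col15a1.

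**Figure D3:**
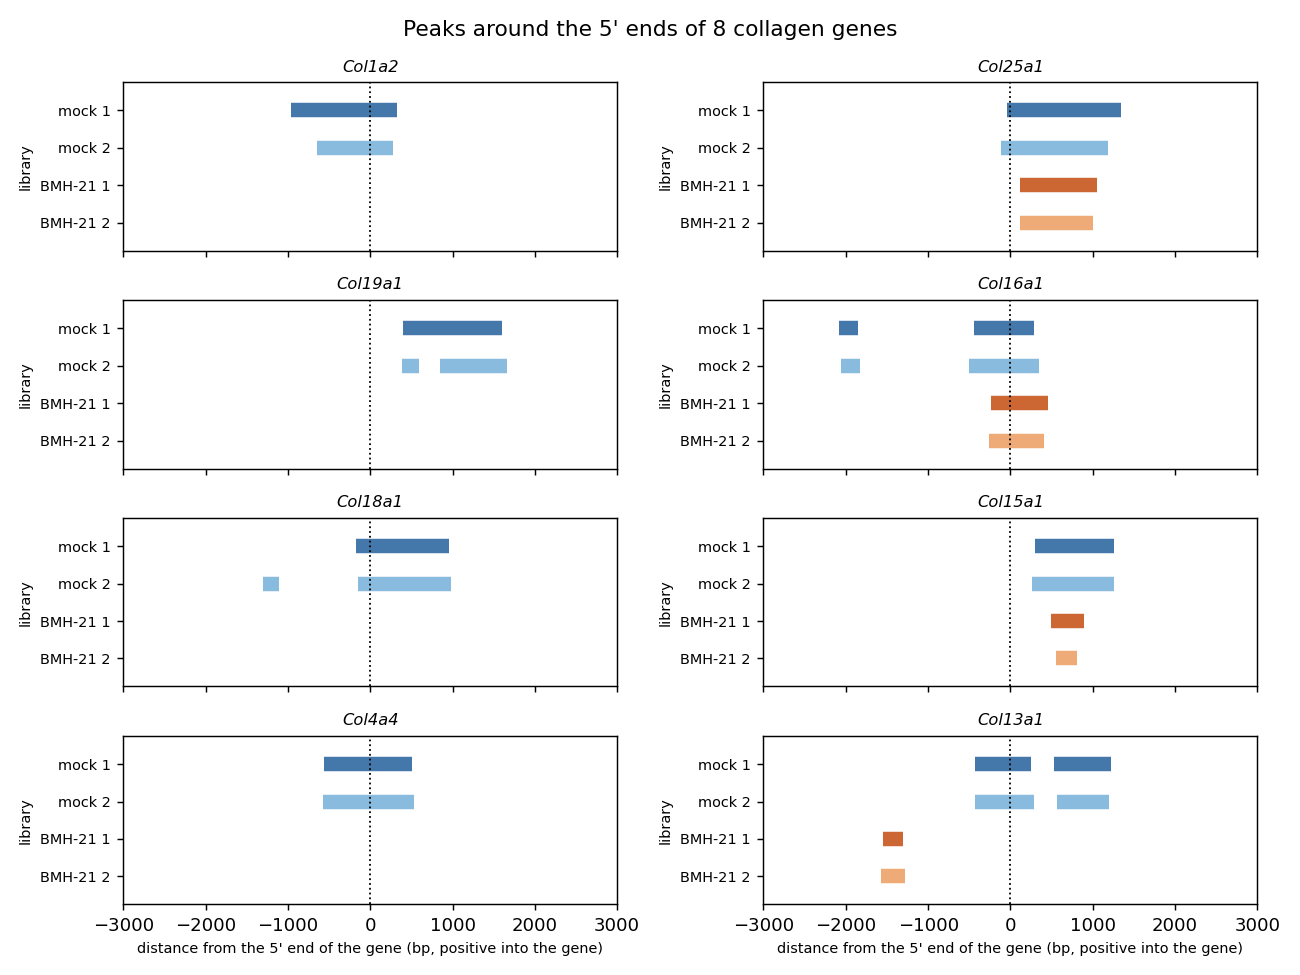
Peaks (bars) by library (y axis) around the 5′ end of 8 collagen genes, against the distance in bp from that end, positive into the gene. The left column holds mock-only genes, with no BMH-21 bar in the span shown, and the right column genes occupied in all 4 libraries, of which Col13a1 has its BMH-21 bars more than 1 kb upstream of the start.

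By fold percentile, the mock-only collagen genes did not have the lower median mock strength. Each gene's strength was taken as the percentile of its strongest end peak by fold within a mock list, averaged over the 2 mock lists. Mock-only collagen genes had a median percentile of 79.9 (n = 11) and collagen genes occupied in all 4 libraries one of 71.5 (n = 18). Over all protein-coding genes the order was the reverse, 54.6 for mock-only genes and 89.2 for genes occupied in all 4. By −log10 q of the same collagen peaks, the mock-only genes had the lower median in each mock list. The lowest percentile among collagen genes occupied in both mock libraries, 15.8, was that of the mock-only gene Col7a1. At a percentile of 75 or more, 6 of 16 collagen genes (37.5%) were mock-only, against 5.12% of 10133 protein-coding genes. Counted by site, it was 5 of 14. The share was 5 of 11 between percentiles 75 and 90, where that of all genes was 7.52%, and 1 of 5 (Col19a1) from 90, where it was 3.70%. Below a percentile of 50 it was 2 of 6, near the 32.1% of all genes. These shares are descriptions, and the groups of collagen genes are small.

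In promoter composition, the collagen class without a gene-end peak lay near the same class of all genes. The mock-only collagen class had higher medians than that class of all genes. The collagen class occupied in all 4 libraries had a lower CpG count and a lower CpG ratio. The median promoter of members occupied in all 4 libraries (16 promoters of 15 genes) had 61.7% G and C, 17 CpG and an observed to expected CpG ratio of 0.600. Mock-only members (9 promoters of 8 genes) had 61.0%, 13 CpG and a ratio of 0.471, and members with no gene-end peak (9 promoters of 8 genes) 47.3%, 3 CpG and 0.139. Among all protein-coding genes the class occupied in all 4 had 61.3% G and C, 21 CpG and a ratio of 0.754, the mock-only class 55.7%, 7 and 0.317, and the class without a peak 45.0%, 2 and 0.176. The collagen classes overlapped in range, since Col4a6 (3 CpG) and Col24a1 (6) had a peak in all 4 libraries and Col6a5 (10) had none at a gene end. The letters GGGCGG, the GC box bound by Sp factors, were searched on both strands and always contain a CpG. Promoters were grouped by the gene-end class of their gene. The letters were found in 13 of 16 promoters of genes occupied in all 4 libraries. They were found in 6 of 9 of mock-only genes and in 2 of 9 of genes without a gene-end peak. The promoter itself can differ from that class: that of Col7a1 overlapped no peak, and that of Col6a5 overlapped one in both mock libraries. Over all genes the shares of these classes were 63.7%, 36.5% and 12.4%, and 46.2% of all 21262 promoters of that length held the letters. Of the printed sequences, those of Col1a2, Col25a1, Col16a1 and Col4a5 hold the box and those of Col19a1, Col4a4 and Col3a1 do not. A match of letters is a description and not evidence of binding.

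Gene-end peaks that were present in all 4 libraries had lower widths in the BMH-21 libraries. The median width of the widest end peak over the 18 genes was 753 bp in mock 1, 735.5 bp in mock 2, 521.5 bp in BMH-21 1 and 591.5 bp in BMH-21 2. The group means were 744 ± 12.4 bp and 556 ± 49.5 bp (SD, n = 2), a difference of -188 bp (exact permutation p = 0.333, the smallest possible). Over all protein-coding genes occupied in all 4 libraries the medians were 994, 995, 912 and 891 bp, a difference of -93 bp. Of the 18 collagen genes 13 had both BMH-21 widths below both mock widths, against a background of 48.5%, and none had both above, against 22.0%. The 4 widest peaks overlapped in one place in 15 of the 18 genes, of which 10 had lower BMH-21 widths, while at Col13a1, Col23a1 and Col24a1 the widths belong to peaks at different places. The other 5 (Col4a5, Col4a6, Col5a1, Col5a3 and Col11a2) overlapped. With a window of 2.5 kb the difference was -462.5 bp.

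The lowest ratios of width were found at 3 genes, singled out after their values were seen. Col24a1 had 782 and 719 bp in mock, against 236 and 230 bp in BMH-21, but the widest mock 2 peak lay further into the gene. At the place of the BMH-21 peaks, inside the gene past the start, the mock 2 peak was 362 bp wide. Col15a1 had 957 and 999 bp against 400 and 256 bp. Col13a1 had 686 and 718 bp against 200 and 225 bp, but at different ends, as described above. In each of these the BMH-21 values lay well below the mock values. Col25a1, whose BMH-21 peaks had the highest gene-end folds of the family, was also narrower, with 1380 and 1299 bp against 926 and 885 bp. Col9a3 differed little, with 524 and 544 bp against 516 and 506 bp.

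**Figure D4:**
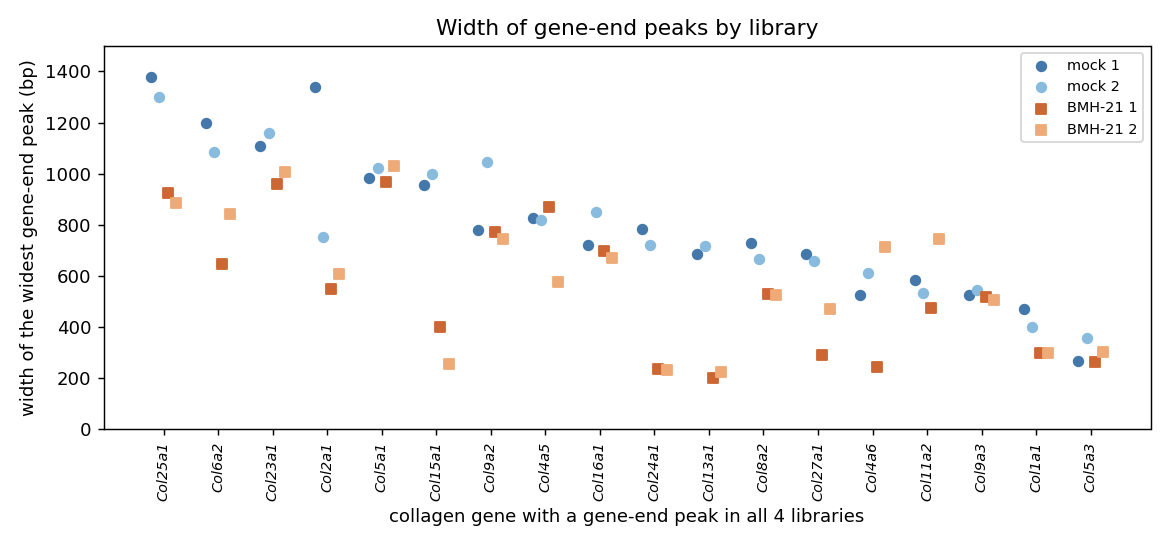
Width in bp of the widest gene-end peak (y axis) for the 18 collagen genes occupied in all 4 libraries (x axis), by library; circles are mock and squares BMH-21. The BMH-21 squares lie below both circles in 13 genes, with the smallest difference of means at Col9a3.

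Inside gene bodies, taken as peaks that overlap the gene but neither of its end windows, collagen genes had 323 peaks in mock 1, 355 in mock 2, 111 in BMH-21 1 and 128 in BMH-21 2. The group means were 339 ± 22.6 and 120 ± 12.0 (SD, n = 2), a ratio of 0.353 (exact permutation p = 0.333). All protein-coding genes together had 49173 and 53078 against 16214 and 17685 body peaks, a ratio of 0.332. With lists of equal length the collagen ratio was 0.9915 (exact permutation p = 1) and that of all genes 0.825, so the lower number of body peaks moved with the length of the lists. Unlike the gene ends, the bodies of collagen genes were close to the background.

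Joined across libraries, the body peaks made 461 regions. Of the 252 in both mock libraries 178 were mock-only, or 70.6% (64.6 to 76.2%), against 70.1% over the bodies of all protein-coding genes, and 58 were in all 4 libraries. Of 88 regions in both BMH-21 libraries 16 were BMH-21-only, or 18.2% (10.8 to 27.8%), against 22.5%. By gene, 28 of the 41 members with a body peak had fewer in each BMH-21 than in each mock library, against 63.3% of protein-coding genes with body peaks. In 13 members the groups overlapped and in none did both BMH-21 libraries have more. Col1a2, Col5a2 and Col11a1 had no body peak in any library.

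The X-linked members stood apart from the autosomal ones. Col4a5 had 24 and 23 body peaks in mock, against 25 and 22 in BMH-21, and Col4a6 had 33 and 37 against 17 and 22. In the 2 X-linked genes 15 of 46 regions were mock-only (32.6%, 19.5 to 48.0%), near the 25.9% of gene-body regions of the whole X. In autosomal members the share was 163 of 206 (79.1%, 72.9 to 84.5%), with 75.1% over all autosomal gene bodies. The intervals of both shares include the value of their chromosomes, and the collagen total is a mixture of both. Without the X pair the ratio of body peaks was 0.273. The ratio over all autosomal genes was not calculated, and the 0.332 of all protein-coding genes includes the X.

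Among autosomal genes, several long members with many mock peaks had few in the BMH-21 libraries. Col23a1 had 22 and 24 body peaks in mock, against 1 and 1 in BMH-21, and Col27a1 had 18 and 20 against 1 and 5. Col5a1 had 17 and 20 against 2 and 3, Col13a1 17 and 23 against 3 and 3, and Col18a1 17 and 21 against 3 and 5. In all 5 genes, picked from the members with many mock peaks, the groups did not overlap. The same held for 28 of the 41 members with body peaks and for 63.3% of protein-coding genes with body peaks. Col5a1, Col23a1 and Col27a1 had a 5′ end peak in all 4 libraries. Col26a1 differed from these, with 25 and 19 body peaks in mock, against 14 and 15 in BMH-21, and 7 of its 18 regions in both mock libraries were in all 4. With Col26a1 left out, a choice made after its values were seen, the autosomal share of mock-only regions was 82.4%. Leaving out a member that kept many peaks raises the share, so it is not compared with the 75.1% of all autosomal gene bodies.

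**Figure D5:**
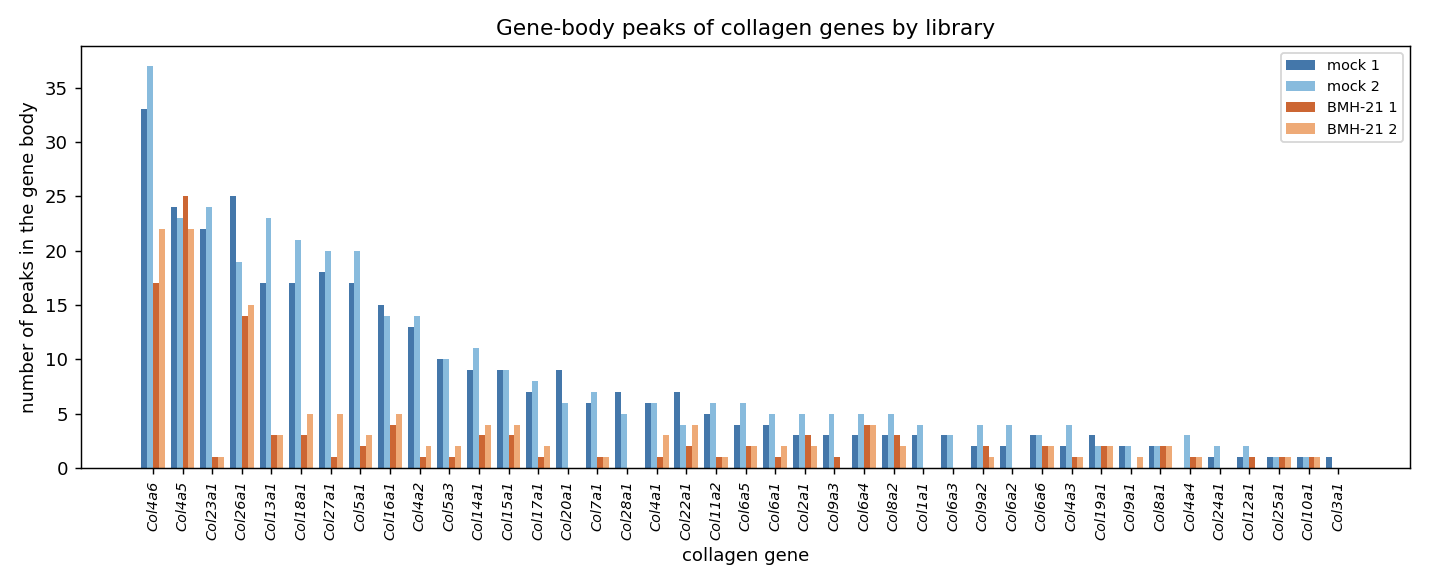
Number of gene-body peaks (y axis) for the 41 collagen genes with any (x axis), by library, with mock bars in blue and BMH-21 bars in orange. The orange bars are as tall as the blue ones at Col4a5 and lower by more than 10 peaks on average at Col23a1, Col13a1, Col18a1, Col27a1, Col5a1, Col4a2 and Col4a6.

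The strongest body regions of each class were distant from gene ends. The mock-only region with the highest fold lay in Col28a1 (chr6:8129972-8131340), 63.1 kb from the 5′ end of the gene, with fold 10.1 and 11.4 in mock 1 and mock 2. It was followed by one in Col23a1 (chr11:51455564-51455897, fold 7.12 and 10.2) and one in Col4a2 (chr8:11398597-11399672, fold 8.10 and 9.0). Col28a1 had no peak within 1 kb of a gene end, and a peak of mock 1 (fold 4.51) lay upstream of its 5′ end outside that window. The BMH-21-only regions, spread over 13 genes, were led by one in Col6a4 (chr9:106040320-106041179), 56.1 kb from the 5′ end, with fold 11.9 in BMH-21 1 and 13.5 in BMH-21 2. Col2a1 held a wide one (chr15:97992563-97993753, 1094 and 1172 bp, fold 6.88 and 6.83) and Col27a1 another (chr4:63307415-63307759, fold 7.12 and 6.26). No peak of a mock library overlapped these regions.

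Genes that act on collagen or share the basement membrane with it were counted in the same way. Of 29 genes for the modification, folding, trimming and crosslinking of collagen, 27 were occupied in both mock libraries, 2 of these were mock-only (7.41%, near the background of 11.5%) and 22 were occupied in all 4. The mock-only genes were Plod1, a lysyl hydroxylase (fold 4.23 and 3.90), and Serpinh1, the collagen chaperone (3.30 and 3.50). Of 10 collagen receptor genes 6 were occupied in both mock libraries and 2 were mock-only (33.3%), the neighbouring integrin genes Itga1 (7.22 and 8.66) and Itga2 (6.32 and 7.72), while Itgb1, Itga11, Ddr1 and Mrc2 were occupied in all 4. Of 15 laminin and other basement membrane genes 13 were occupied in both mock libraries and 4 were mock-only (30.8%): Lama1 (10.1 and 9.49), Lama2 (7.58 and 5.65), Lamb1 (6.14 and 7.05) and Lama4 (4.87 and 4.52). None of the 3 lists had a BMH-21-only gene, and their shares were not tested against that of the collagen genes.

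Markers of the other cells of a testis were counted in the same way as the collagen genes. Of 14 Sertoli cell markers 10 were occupied in mock 1, 11 in mock 2, 7 in BMH-21 1 and 6 in BMH-21 2, with 4 mock-only (Kitl, Inha, Sox8 and Gata1). In that list Rhox5 was BMH-21-only (fold 5.68 and 6.45), and Gata4 and Cst12 had no peak. Of 15 peritubular myoid and Leydig cell markers 10 and 11 were occupied in mock, against 7 and 7 in BMH-21, with Tcf21, Star and Nr5a1 mock-only and the defining genes Acta2 and Pdgfra, with Cyp17a1 and Hsd3b1, without a peak. Of 8 endothelial markers 3 and 3 were occupied in mock, against 1 and 1 in BMH-21, with Cdh5 and Tie1 mock-only and Pecam1, Tek, Emcn, Egfl7 and Vwf without a peak. Of 10 leukocyte markers 6 and 7 were occupied in mock, against 1 and 1 in BMH-21, with 5 mock-only, led by C1qc, C1qa and Tyrobp, while Ptprc, Lyz2 and Adgre1 had no peak. Each of these 4 lists had fewer occupied genes in both BMH-21 libraries than in either mock library, as had the collagen genes, the spermatogonial list and all protein-coding genes (15331 and 15475 in mock, 13345 and 13446 in BMH-21). Spermatogonial markers numbered 8 and 8 of 10 in mock and 6 and 7 in BMH-21, with Dmrt1 mock-only. Markers of spermatocytes numbered 11 and 11 of 12 in mock and 11 and 10 in BMH-21, with none mock-only and Ccna1 the gene without a peak, so markers of the labelled cell type were occupied in each library. Of the Sertoli markers occupied in both mock libraries, 4 of 10 (40%) were mock-only. For peritubular myoid and Leydig cells it was 3 of 10 (30%), for endothelial cells 2 of 3 (66.7%) and for leukocytes 5 of 6 (83.3%). Spermatogonial markers had 1 of 7 (14.3%) and spermatocyte markers 0 of 11. The same share was 11.5% over all protein-coding genes and 35.5% for collagen genes. The part of other cell types in the collagen result was not tested.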

How the data were processed

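ATAC-seq peak lists of 4 libraries of mouse pachytene spermatocytes, 2 with BMH-21 and 2 with DMSO, were used. Per the submitters' processing notes, fastp, Bowtie2, bedtools, deepTools and MACS2 2.1.0 were used, without role or order, and both mm39 and mm10 are named. The sources used here give no calling parameters, duplicate removal or shift of read ends. Coordinates were taken as mm10, since chromosome 1 peaks reach 195371813, and are 1-based. Each library has a list of its own, so samples were not pooled for calling. The deposited fold (a ratio to the local background), −log10 p, −log10 q and score are the authors' values per peak within 1 list and are not normalised between libraries. Here they served only to order and filter the peaks of 1 list. The smallest −log10 q was 2.01 to 2.09.

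Peaks were assigned to gene ends (1 kb) and gene bodies and joined across lists at an overlap of at least 1 bp, in Python 3.11.15 with pandas 2.3.3, NumPy 2.4.6 and SciPy 1.17.1. Strand, starts and promoter sequences came from RefSeq (GRCm38.p6). Group values were compared with exact two-sided permutation tests, shares have exact Clopper-Pearson 95% intervals, and the scripts were tested on simulated lists. The lists hold no read counts, so no count model was run. All collagen genes were named by class, and from the other lists up to 4 mock-only and 4 BMH-21-only genes by fold. Members and gene lists were chosen with earlier results of these data known. Libraries with the same replicate number were not treated as pairs in the main comparisons. Alternatives were a −log10 q of at least 5, lists of equal length, windows of 100 bp on either side of summits, an overlap of 50%, end windows of 500 bp and 2.5 kb, the same gene end within a group, and leaving out each library. Those chosen after seeing the data were annotated starts, the same joined region, and autosomal members.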

Additional observations from a re-analysis of the deposited data

How the results depend on the processing

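The ratio of body peaks was below 1 and the width differences were negative under all alternatives run. The share of mock-only body regions lay above that of all genes as reported (70.63 against 70.09%) but below it at a −log10 q of at least 5 (70.22 against 71.92%), with lists of equal length and without mock 2, BMH-21 1 or BMH-21 2. With lists of equal length 7 collagen genes were mock-only at a gene end, in place of 11, and 47.31% of the gene-body regions in both mock libraries were mock-only, against 52.5% over all protein-coding genes. The cause was not tested. The body share was 79.13% for autosomal members and 73.07 to 76.62% without one library at a time. Mock-only genes at a gene end numbered 10 to 13 under the other 13 alternatives, BMH-21-only genes 0 in each, and genes occupied in all 4 libraries 13 to 22. The members changed: at annotated starts, known for 35 genes, 7 of the 11 stayed mock-only and Col6a5, Col9a1 and Col13a1 entered. With a window of 2.5 kb 9 of the 11 stayed, and Col6a5, Col12a1, Col17a1 and Col20a1 entered. The difference in end width was -143.2 to -222.8 bp, apart from -462.5 bp with a window of 2.5 kb, and that in body width -42.5 to -138 bp, against -77.25 bp as reported. The ratio of body peaks was 0.2727 to 0.3776, apart from 0.9915 with lists of equal length (exact permutation p = 1). Libraries with the same replicate number did not deviate together in fold percentile (correlation 0.0023) or log2 width (0.00061) over 29225 regions. These correlations do not cover the number of peaks. Replicate 2 had the longer list in mock (117905 against 109230 peaks) and in BMH-21 (55459 against 51234). Whether libraries with the same number share a batch was not tested. With the replicate number as a block the ratio of body peaks was 0.3525, the end width difference -187.8 bp and the body width difference -77.25 bp, each with an exact p = 0.5, the smallest that 2 pairs allow. Depth is unknown, so a missing peak sets no limit on accessibility.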

Other observations

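The 3 short-chain collagen genes each held a gene-body region toward the 3′ end of the gene that was wide in mock and narrow in BMH-21. They were noticed after their values were seen and were not tested. In Col8a2 (chr4:126309938-126312279, 24.3 kb from the 5′ end of a gene of 27.5 kb) the widest peak measured 2218 and 2241 bp in mock 1 and mock 2 and 206 and 204 bp in BMH-21 1 and BMH-21 2. In Col8a1 (chr16:57627136-57628747, 127 kb from the 5′ end of 130 kb) the widths were 1523, 1596, 200 and 556 bp, and in Col10a1 (chr10:34394133-34395716, 4.94 kb from the 5′ end of 7.11 kb) 1569, 1573, 200 and 448 bp. Over the 58 collagen body regions in all 4 libraries the median widths were 441.5, 451.5, 341.5 and 397 bp, and over those of all protein-coding genes 547, 557, 473 and 462 bp, so these 3 regions lay far above the mock medians.

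Col15a1 held a body region (chr4:47234526-47235362, 27.3 kb from the 5′ end) with fold 5.37 and 4.8 in mock, against 9.40 and 10.7 in BMH-21, whereas its gene-end peak had the higher folds in mock. Folds are not normalised between libraries, and the order within 1 library was also opposite: in mock the end peak had the higher fold and in BMH-21 the body peak. Col26a1 had 7 body regions in all 4 libraries, with median folds of 4.33 and 4.13 in mock, against 6.04 and 6.36 in BMH-21 and median widths of 407, 448, 487 and 433 bp.

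The letters CCAAT, on either strand, were found in 4 of 16 promoters of collagen genes occupied in all 4 libraries. For mock-only genes it was 4 of 9 and for genes without a gene-end peak 3 of 9 (38.2% of all promoters). TATAAA was found in 2, 0 and 3 promoters of these classes (12.6% of all promoters). Across the 44 genes, which share the same libraries, gene length and the number of body regions in both mock libraries had a Spearman rho of 0.171.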
